A study of Canis lupus familiaris with 60 samples.

Results

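The 4 genes of the interferon response, MX1, MX2, CXCL10 and IFNG, were followed through the skin of 12 Beagle dogs, with IFNG as the inducer and the other 3 as genes that interferons switch on. Their members were all array probes whose identifier, with the version dropped, is a dog RefSeq transcript of 1 of the 4 genes. This gave 7 of the 60068 probes on the array (52734 distinct identifiers), a pair for each response gene and 1 for IFNG. A table of RefSeq genes paired the identifiers of 3 of the 4 genes with their symbols. The fourth, NM_001003133, is taken here for the MX2 transcript from general knowledge, because the table lists MX2 under other transcript records, and it is given under its identifier throughout.

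Type I interferons and interferon gamma bind separate receptors on the cell surface and turn on overlapping programs of genes through STAT transcription factors. MX1 and MX2 encode GTPases that block viruses inside the cell and are used as readouts of type I interferon. CXCL10 encodes a chemokine that draws activated T cells through the receptor CXCR3 and is induced by interferon gamma, which T cells and natural killer cells make.

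The sensitized group was 6 dogs that had received weekly epicutaneous doses of the house dust mite Dermatophagoides farinae before the study, a model of atopic dermatitis made by exposure rather than by inherited disease. The nonsensitized group was 6 nonallergic dogs of the same breed and owner. Males outnumbered females in the sensitized group and females outnumbered males in the nonsensitized group, so sex was partly tied to dog group. All 12 dogs had their skin clipped, and each gave 5 punch biopsies under local anesthesia with lidocaine. These came from untreated skin at 0 hr and from sites under a patch with 75 mg of mite paste (allergen) or 50 µl of physiologic saline at 6 hr and at 24 hr. Each of these 10 groups held 6 one-colour arrays, except that the array of dog 2839 at the 24 hr allergen site was left out for poor RNA quality, which left 5 arrays there and 59 in all. All 12 dogs were 2 to 3 years old, and the 5 biopsies of a dog share that animal.

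The processed signal, an intensity after background subtraction, had a median per array of 81.6 to 146.1, and 68.8% to 80.2% of spots were well above background. Untreated skin lay on slides 6 to 8 of the 8 slides, and the 24 hr samples lay on slides 1 to 3 except for 1 array in the fit on slide 8, so that slide and time were largely tied together. Levels below are log2 values after variance stabilization (vsn), a scale that compresses differences between dim signals, and a level of one probe says nothing about the level of another probe. In whole biopsies, fewer cells of a type and less RNA per cell cannot be told apart.

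IFNG was close to the floor of the array in nearly every biopsy. Its probe was well above background on 2 of 59 arrays and on none of the 29 arrays of sensitized dogs. On the other 57 arrays its processed signal was at most 11.2, and its median over the 59 arrays was 2.88. The brightest array was the 24 hr saline site of the nonsensitized dog 2802, with a processed signal of 2250. The second was the 24 hr allergen site of the nonsensitized dog 2845, with 77.4. The 5 other nonsensitized dogs had signals of 2.34 to 4.22 at the 24 hr saline site, so a single biopsy stood far above the rest. IFNG was read by 1 probe, so a transcript signal and a local defect of the array cannot be told apart for this value.

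**Figure D1:**
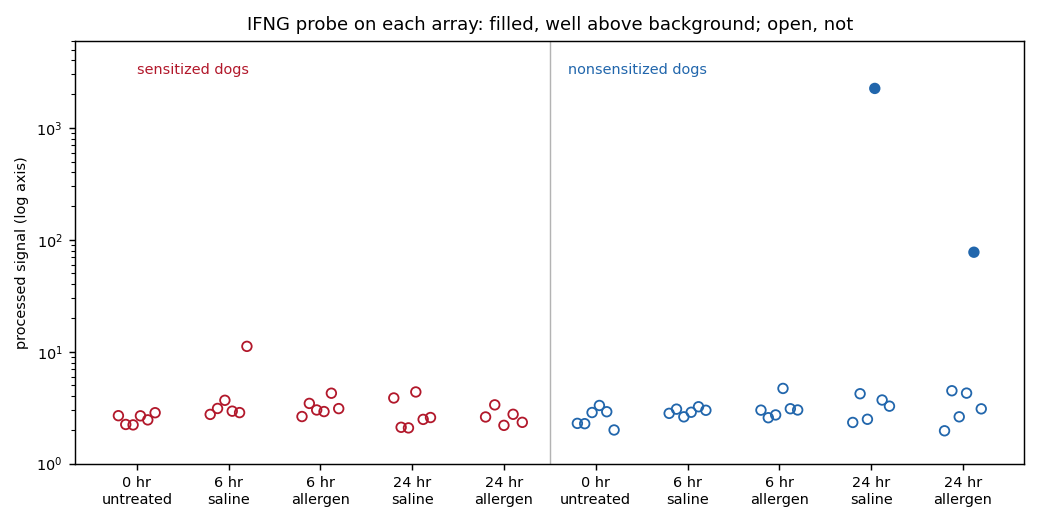
Processed signal of the IFNG probe (log axis) on each of the 59 arrays, by dog group, time and site; filled points are well above background and open points are not. The 2 filled points lie at 2250 and 77.4, and the other 57 arrays lie at 11.2 or below.

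The IFNG probe did not pass the filter used for the tests, which asks for detection of a probe in 5 or more arrays of some group, so it has no fold change. Without that filter, limma gave IFNG a log2 difference of 1.66 ± 0.68 (SE, adjusted p = 0.0393) between saline-treated and untreated skin of nonsensitized dogs at 24 hr, and that mean rests on the array of dog 2802. In the 14 other comparisons made without the filter its adjusted p was 0.336 or above. On the array of dog 2802, CXCL10 was at 6.58, against 6.24 to 8.44 in the other 5 dogs, and MX1 was at 9.23, against 8.28 to 10.01. NM_001003133 was at 7.65, just above the range of 6.97 to 7.62 in the other dogs. Both CXCL10 and MX1 thus lay within the range of the group there. CXCR3, the receptor for CXCL10, had a scaled processed signal of 107.6 on that array and of 32.2 to 41.4 on the others of the group. Of 9700 probes that were well above background on at most 2 arrays, 30 exceeded a signal of 1000 on some array, and 5 of them did so on this one.

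In untreated skin the levels of the response genes overlapped between the dog groups. MX1 had a lowest, median and highest level of 7.50, 7.87 and 8.42 in sensitized dogs. The values were 7.50, 7.83 and 8.28 in nonsensitized dogs, so the ranges overlapped almost completely. The difference, sensitized minus nonsensitized, was 0.05 ± 0.41 (SE) for MX1, -0.04 ± 0.22 for NM_001003133 and -0.09 ± 0.34 for CXCL10 on the log2 scale, with adjusted p = 1 for each by limma with Benjamini-Hochberg adjustment over 45972 probes. The 95% interval of the CXCL10 difference ran from -0.76 to 0.58. None of the 3 genes had an unadjusted p below 0.05, against 3.36% of all probes. The limits of a false discovery rate of 5% and a change of 1.5-fold were passed by none of the 3 and by 0.00218% of all probes.

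**Figure D2:**
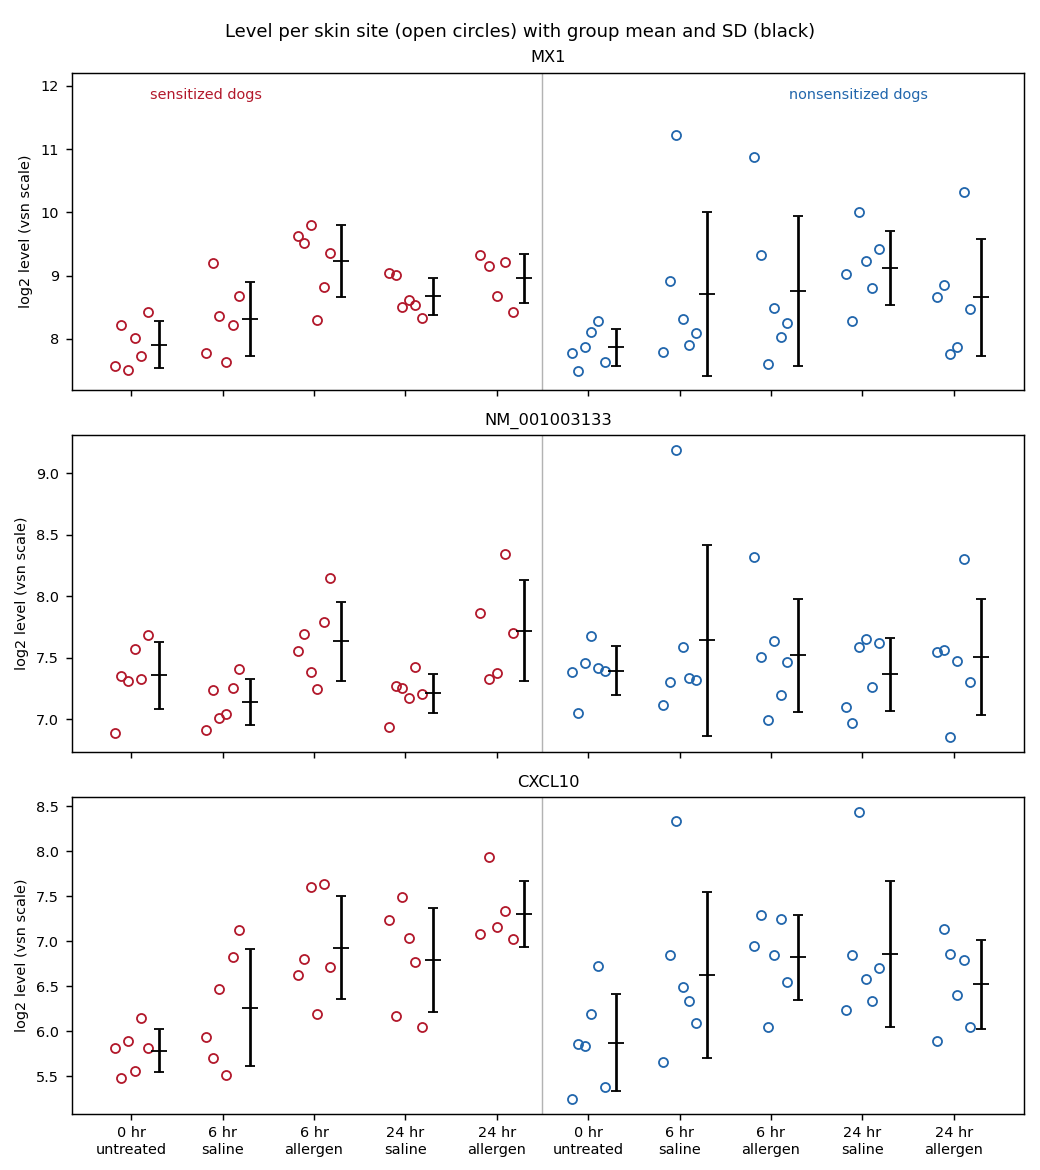
Log2 level (vsn scale) of MX1, NM_001003133 and CXCL10 at each skin site, with the mean and SD of each group in black, for sensitized dogs on the left and nonsensitized dogs on the right. Single saline sites at 6 hr (MX1 at 11.22, NM_001003133 at 9.19) and at 24 hr (CXCL10 at 8.44) of nonsensitized dogs lie apart from their groups.

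Allergen-treated skin was compared with saline-treated skin to ask what the mite added to the patch itself. None of the 3 measured response genes passed the limits in any of the 4 such comparisons, although in sensitized dogs the brighter probes of MX1 and NM_001003133 were higher at the allergen site in every dog at both times. At 6 hr in sensitized dogs, MX1 levels had a lowest, median and highest value of 7.63, 8.29 and 9.20 at saline sites. The values at allergen sites were 8.29, 9.43 and 9.80, so the 2 ranges overlapped. Within dogs the difference ranged from 0.31 to 1.85, and the limma estimate was 0.92 ± 0.41 (SE, 1.9-fold, 95% interval 0.09 to 1.75, adjusted p = 0.435). On the slides that held both kinds of site, the MX1 difference was 0.90 on slide 5 and 0.93 on slide 6.

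NM_001003133 moved over a narrower range in the same biopsies. At 6 hr in sensitized dogs its lowest, median and highest levels were 6.91, 7.14 and 7.41 at saline sites and 7.24, 7.62 and 8.15 at allergen sites. All 6 dogs had the higher level at the allergen site, by 0.20 to 0.74, and the limma estimate was 0.49 ± 0.22 (SE, adjusted p = 0.444). CXCL10 had levels of 5.52, 6.20 and 7.13 at saline sites and of 6.19, 6.76 and 7.64 at allergen sites, with the allergen site higher in 5 of 6 dogs. Its estimate was 0.67 ± 0.34 (SE, adjusted p = 0.533). In this comparison 0.418% of all probes passed both limits. At an unadjusted p below 0.05, 2 of the 3 genes passed, MX1 and NM_001003133, and 9.52% of all probes did. The second, dimmer probe of MX1 was higher at the allergen site in 5 of 6 dogs at 6 hr and in 4 of 5 at 24 hr. For the second probe of NM_001003133, at background on most arrays, it was also 5 of 6 and 4 of 5.

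An exact two-sided sign-flip test of the differences within dogs, added after the data were seen, gave p = 0.0312 for MX1 and for NM_001003133 at 6 hr in sensitized dogs, the smallest value that 6 dogs allow. Adjusted over the 12 tests of 3 genes in 4 comparisons, both were 0.15. No gene passed 0.05 after this adjustment. With 6 dogs, a gene could pass only if most of the 12 tests reached the smallest p together. The failure to pass was thus close to fixed in advance. With 5 dogs at 24 hr in the sensitized group the smallest possible p is 0.0625, so that comparison could not pass.

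At 24 hr in sensitized dogs, MX1 at the 5 allergen sites read 9.33, 9.16, 8.68, 9.21 and 8.43 in dogs 2838, 2840, 2841, 2853 and 2855. The saline sites of the 6 dogs had a lowest, median and highest level of 8.33, 8.58 and 9.05. The estimate was 0.29 ± 0.43 (SE, adjusted p = 0.938), with overlapping ranges. NM_001003133 read 7.86, 7.32, 7.37, 8.34 and 7.70 at the allergen sites of the same dogs, against 6.94, 7.23 and 7.42 as the lowest, median and highest level at saline sites. Its estimate was 0.51 ± 0.23 (SE, adjusted p = 0.385), and it was higher at the allergen site in 5 of 5 dogs. CXCL10 read 7.08, 7.93, 7.16, 7.33 and 7.03 at the allergen sites, against 6.05, 6.90 and 7.49 at saline sites, with an estimate of 0.51 ± 0.35 (SE, adjusted p = 0.675). In all, 0.274% of probes passed both limits here. NM_001003133 alone among the 3 genes had an unadjusted p below 0.05, as did 11.2% of all probes.

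In nonsensitized dogs at 6 hr, MX1 and CXCL10 were each higher at the allergen site in 5 of 6 dogs and NM_001003133 in 4 of 6, with dog 2800 far lower there for all 3. The within-dog difference for MX1 was 3.08 in dog 2704 and -3.63 in dog 2800, and it was between 0.14 and 0.42 in the other 4 dogs. The limma estimate of 0.05 ± 0.41 (SE, adjusted p = 0.995) was a mean over these opposite values. It was 0.79 without dog 2800 and -0.55 without dog 2704. For NM_001003133 the same 2 dogs gave 1.21 and -2.20, with an estimate of -0.12 ± 0.22 (SE, adjusted p = 0.985), and 0.29 without dog 2800. For CXCL10 they gave 1.28 and -2.29, with an estimate of 0.19 ± 0.34 (SE, adjusted p = 0.984), 0.69 without dog 2800 and -0.02 without dog 2704. Both dogs decided these values. In this comparison 0.0348% of all probes passed the limits, and 5.47% and none of the 3 genes had an unadjusted p below 0.05.

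At 24 hr in nonsensitized dogs the MX1 difference ran from -2.25 in dog 2800 to 1.52 in dog 2845, and 2 of 6 dogs were higher at the allergen site. The estimates were -0.47 ± 0.41 (SE, adjusted p = 0.814) for MX1, 0.14 ± 0.22 (adjusted p = 0.955) for NM_001003133 and -0.34 ± 0.34 (adjusted p = 0.867) for CXCL10. No gene of the 3 had an unadjusted p below 0.05, against 11.7% of all probes, and 0.766% of all probes passed both limits. Leaving out 1 dog, the estimate for MX1 ran from -0.87 without dog 2845 to -0.12 without dog 2800, and that for CXCL10 from -0.50 to -0.09 without the same dogs.

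**Figure D3:**
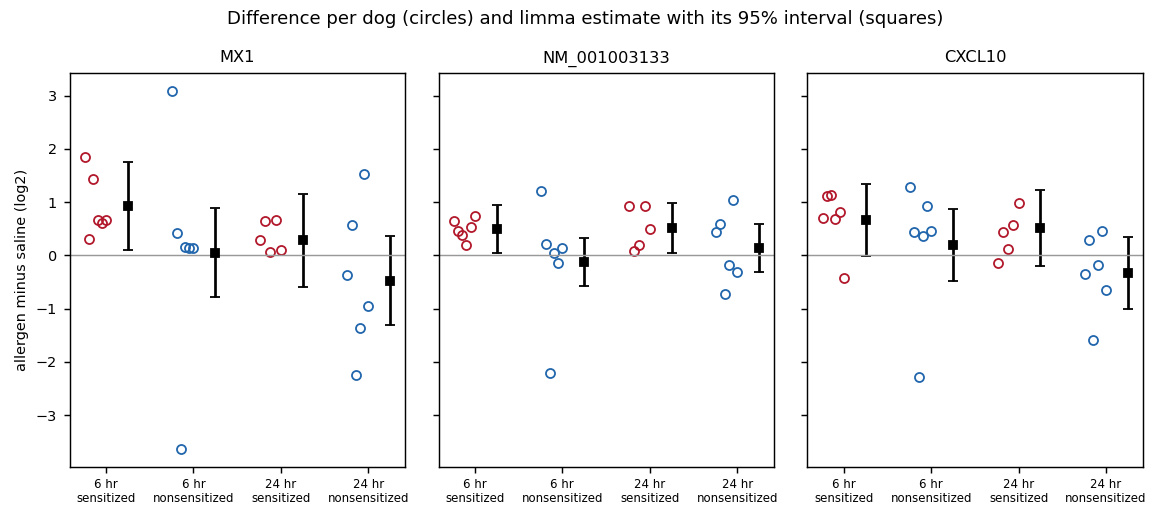
Allergen minus saline on the log2 scale for MX1, NM_001003133 and CXCL10, with a circle for each dog and a square for the limma estimate with its 95% interval. All 6 sensitized dogs lie above 0 at 6 hr for MX1 and NM_001003133, while MX1 in nonsensitized dogs runs from -3.63 to 3.08.

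The response to allergen was then compared between dog groups, as the allergen minus saline difference of sensitized dogs less that of nonsensitized dogs. At 24 hr this was 0.76 ± 0.60 (SE, 95% interval -0.44 to 1.96, adjusted p = 0.66) for MX1. It was 0.37 ± 0.32 (adjusted p = 0.707) for NM_001003133 and 0.85 ± 0.49 (adjusted p = 0.449) for CXCL10 by limma. At 6 hr the differences were 0.87 ± 0.59, 0.61 ± 0.32 and 0.47 ± 0.47 in the same order, each with adjusted p = 1. Leaving out 1 dog, these 6 hr differences ran from 0.13 without dog 2800 to 1.47 without dog 2704 for MX1, from 0.20 to 0.88 for NM_001003133 and from -0.02 to 0.69 for CXCL10, without the same dogs. At 24 hr they ran from 0.40 without dog 2800 to 1.16 without dog 2845 for MX1 and from 0.20 to 0.55 for NM_001003133. None of the 3 genes had an unadjusted p below 0.05 at either time, against 14.2% of all probes at 24 hr and 1.14% at 6 hr. The share of all probes past both limits was 0.935% at 24 hr and 0% at 6 hr.

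Against untreated skin, CXCL10 and MX1 rose in several of the patch groups, under saline as well as under allergen, and NM_001003133 did not pass the limits in any. All these comparisons share the same untreated biopsies of a dog group. The share of all probes past both limits and higher than in untreated skin was 7.61% at 24 hr allergen sites and 2.21% at 6 hr allergen sites of sensitized dogs, and 4.36% at the 24 hr saline sites of the same dogs. The nonsensitized group had 9.89% at 24 hr saline sites, 5.75% at 24 hr allergen sites and 1.04% at 6 hr allergen sites. At 6 hr saline sites, where neither gene passed, it was 0.196% in sensitized and 0.328% in nonsensitized dogs.

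CXCL10 in untreated skin of sensitized dogs had a lowest, median and highest level of 5.48, 5.81 and 6.15, below each of the 5 allergen sites at 24 hr listed above. It rose there by 1.52 ± 0.35 (SE, 2.87-fold, adjusted p = 0.000579, higher in 5 of 5 dogs). At 6 hr the allergen sites also lay above the untreated range, with a lowest level of 6.19, and CXCL10 rose by 1.15 ± 0.34 (SE, 2.21-fold, adjusted p = 0.0138, 6 of 6 dogs). At the saline sites of sensitized dogs the estimate was 0.48 ± 0.34 (SE, adjusted p = 0.374) at 6 hr, and CXCL10 rose by 1.01 ± 0.34 (adjusted p = 0.0171, 6 of 6 dogs) at 24 hr, with ranges that overlapped. The 6 hr allergen call was lost without dog 2840 or dog 2853 (lowest estimate 1.03), and the 24 hr saline call without dog 2838, 2840 or 2841 (lowest estimate 0.89).

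MX1 in untreated skin of sensitized dogs reached 8.42 at most, and at 24 hr the lowest allergen site was at 8.43. MX1 rose there by 1.05 ± 0.43 (SE, 2.07-fold, adjusted p = 0.0484, 5 of 5 dogs). This call was lost in 8 of the 12 fits that left out a dog, those without dogs 2716, 2802, 2838, 2839, 2840, 2841, 2847 or 2853, with estimates of 0.89 to 1.29 over the 12 fits and an adjusted p of up to 0.153. At 6 hr MX1 rose at allergen sites by 1.32 ± 0.41 (SE, 2.5-fold, adjusted p = 0.0207, 6 of 6 dogs), and its ranges overlapped. That call was lost without dog 2838, 2840, 2853 or 2855, with estimates of 1.13 to 1.53 over the 12 fits. At saline sites the estimates were 0.40 ± 0.41 (adjusted p = 0.57) at 6 hr and 0.77 ± 0.41 (adjusted p = 0.15) at 24 hr.

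In nonsensitized dogs both genes rose at the saline sites at 24 hr. MX1 had a lowest, median and highest level of 8.28, 9.13 and 10.01 there, above the highest untreated level of 8.28 by less than 0.01. It rose by 1.26 ± 0.41 (SE, 2.4-fold, adjusted p = 0.00884, 6 of 6 dogs). CXCL10 went from 5.24, 5.85 and 6.73 in untreated skin to 6.24, 6.64 and 8.44, with overlapping ranges, and rose by 0.98 ± 0.34 (SE, adjusted p = 0.0119, 5 of 6 dogs). Without dog 2800 the CXCL10 estimate was 0.66 (adjusted p = 0.0613).

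With all 59 arrays, the other patch groups of nonsensitized dogs did not pass the limits for either gene. At 24 hr allergen sites the estimates were 0.79 ± 0.41 (SE, adjusted p = 0.115) for MX1 and 0.65 ± 0.34 (adjusted p = 0.111) for CXCL10. The second, dimmer MX1 probe did pass there, with 1.08 ± 0.35 (SE, adjusted p = 0.00985). At 6 hr MX1 gave 0.84 ± 0.41 (adjusted p = 0.188) at saline and 0.90 ± 0.41 (adjusted p = 0.181) at allergen sites. CXCL10 gave 0.75 ± 0.34 (adjusted p = 0.143) at saline and 0.95 ± 0.34 (adjusted p = 0.074) at allergen sites, and with the dog as a block the latter passed at an adjusted p of 0.019. Without dog 2800 the 6 hr saline estimates were 0.34 for MX1 and 0.40 for CXCL10, and without dog 2704 the 6 hr allergen estimate for MX1 was 0.46. Without dog 2800, 2 values came to pass the limits, CXCL10 at 6 hr allergen sites at 1.09 (adjusted p = 0.0237) and MX1 at 24 hr allergen sites at 0.97 (adjusted p = 0.03).

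Over the 2 probes of a gene the calls differed nowhere else against untreated skin. The levels of the 2 probes correlated across the 59 arrays with r = 0.946 for MX1, 0.981 for CXCL10 and 0.568 for NM_001003133. The second probe of NM_001003133 was well above background on 12 of 59 arrays and on none of untreated skin, so it was not tested and its differences from untreated skin have no measured base. Read all the same, it was higher than in untreated skin in at least 5 dogs of every patch group. Its means within dogs were 0.60 to 1.20. The IFNG probe, at background on most arrays, was also higher than in untreated skin in at least 4 dogs of every patch group. Its means within dogs were 0.33 to 1.76, so such differences near the floor are not read as rises of a transcript. The brighter probe of NM_001003133 gave estimates between -0.21 and 0.37 in the 8 comparisons with untreated skin. Each had an adjusted p of 0.211 or above by limma.

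Slide and scan session moved with time after patching, and their part in the rises was measured only where slides were shared. With the slide or the scan session as a fixed block, of the 7 rises of MX1 and CXCL10 only that of CXCL10 at 24 hr allergen sites of sensitized dogs stayed past the limits, at 2.10 (adjusted p = 0.0212) and 1.53 (adjusted p = 0.00517). Over all alternatives its adjusted p ran from 4.47e-05 to 0.0212. The other 6 estimates kept their direction, from 1.20 to 1.69 with the slide and from 0.89 to 1.34 with the session. Slide 8 held 1 allergen site at 24 hr and 3 untreated sites of sensitized dogs, which differed by 2.07 for CXCL10 and 1.41 for MX1. Slides 6 and 7 held 6 hr allergen and untreated sites of sensitized dogs, with differences of 0.85 and 1.16 for CXCL10 and of 1.92 and 1.19 for MX1. No slide held both the 24 hr saline and the untreated sites of either dog group.

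**Figure D4:**
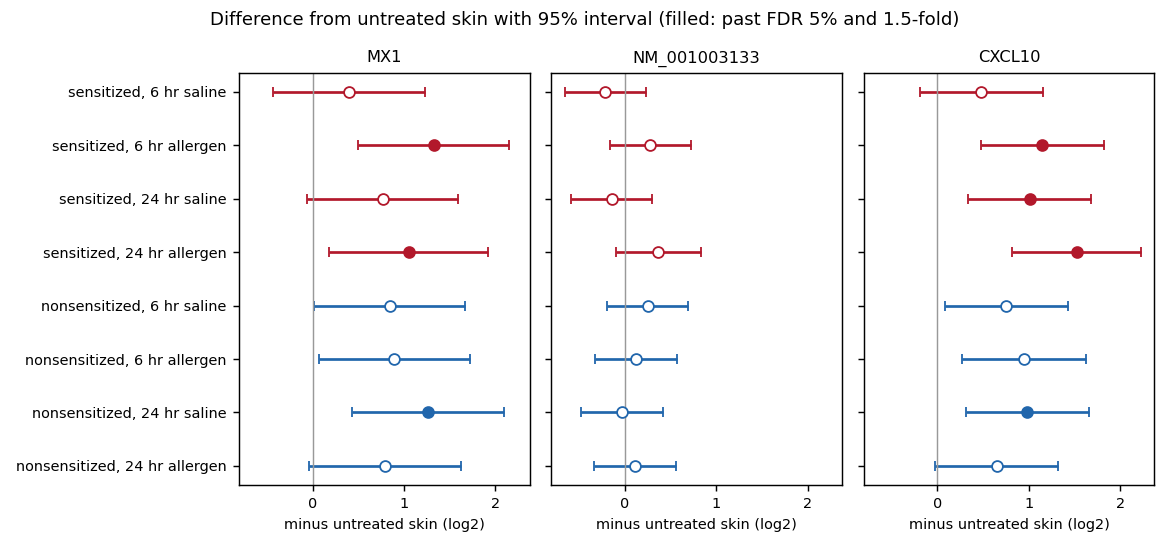
Difference from untreated skin on the log2 scale for MX1, NM_001003133 and CXCL10 in each patch group, with its 95% interval from limma; filled points are past a false discovery rate of 5% and 1.5-fold. CXCL10 is filled in 4 groups, with the highest value, 1.52, at 24 hr allergen sites of sensitized dogs, MX1 is filled in 3 and NM_001003133 in none.

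Markers of infiltrating cells were read in the same arrays. The macrophage gene CD163, the 1 of 8 listed macrophage markers named on the array, had a scaled signal of 264 to 528 in untreated skin of sensitized dogs and of 530 to 1340 at their 24 hr allergen sites. In nonsensitized dogs it was 214 to 648 in untreated skin and 775 to 2260 at 24 hr saline sites. CD163 was 306 to 549 at 6 hr allergen sites and 492 to 1430 at 24 hr saline sites of sensitized dogs. Of 7 neutrophil markers, S100A8 and CXCR2 were named, and their summed signal was almost wholly that of S100A8, which keratinocytes can also make. The sum was 3317 to 16460 in untreated skin of sensitized dogs, 12210 to 88970 at 6 hr allergen sites, 102200 to 229500 at 24 hr allergen sites and 19000 to 55640 at 24 hr saline sites. The nonsensitized group had 2672 to 39380 in untreated skin and 15740 to 94030 at 24 hr saline sites. In the fit without blocks, S100A8 passed the limits in these 4 patch groups. CXCR2, the neutrophil receptor, did not pass in any, with estimates of 0.01 to 0.12. The summed signal of CD4, CD8A, CD28 and ICOS, 4 of 10 T cell markers, was 153 to 268 in untreated skin of sensitized dogs, 147 to 259 at 6 hr allergen sites, 172 to 253 at 24 hr allergen sites and 129 to 212 at 24 hr saline sites. It was 212 to 263 in untreated skin and 96.9 to 198 at 24 hr saline sites of nonsensitized dogs, with no overlap. Their 24 hr allergen sites, at 113.4 to 197.6, and 6 hr saline sites, at 136.5 to 181.1, also lay below untreated skin. Dendritic cell markers (5 of 10 named) summed to 991 to 1246 in untreated skin and 1234 to 2103 at 24 hr allergen sites of sensitized dogs, and to 741 to 1596 and 1359 to 2461 in untreated skin and at 24 hr saline sites of nonsensitized dogs. Markers of mast cells and eosinophils (4 of 8) summed to 1588 to 2478 and 2286 to 5439 in the same sensitized groups and to 1417 to 3325 and 2460 to 6866 in the nonsensitized groups. PRF1 and KLRD1, 2 of 10 markers of natural killer and cytotoxic cells, summed to 28.9 to 73.7 and 44.9 to 112.3 in the sensitized groups and to 46.5 to 71.2 and 28.9 to 200.2 in the nonsensitized groups. MS4A1, 1 of 5 B cell markers, was at 1.99 to 15.2 and 3.15 to 30.7 in the sensitized groups. Fibroblast markers (3 of 7) were lower with no overlap at 24 hr allergen sites of sensitized dogs, at 296200 to 388300 against 415400 to 553900 in untreated skin. The 24 hr saline sites of these dogs overlapped with untreated skin, but their median was 363500, against 364400 at the allergen sites. Endothelial markers (4 of 8) were lower with no overlap at 24 hr saline sites of nonsensitized dogs, at 22730 to 34820 against 39590 to 47770. Their 24 hr allergen sites, at 20650 to 34680, did not overlap with untreated skin either. The summed keratinocyte and melanocyte markers overlapped with untreated skin at 24 hr allergen sites of sensitized and 24 hr saline sites of nonsensitized dogs. Each of these markers was well above background on at least 1 array, and their part in the changes of MX1 and CXCL10 was not tested.

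A wider list of 131 genes of interferon signalling, its inducers and its targets was read through the symbols paired with the array. Of these, 20 genes other than the 4 were named, none of them an interferon receptor, a STAT or an IRF, and 18 passed the filter. None of the 18 passed the limits in the 4 comparisons of allergen with saline, where the median difference of the 18 ran from -0.09 to 0.21 against -0.0014 to 0.0064 over all probes. IL18BP is a decoy that binds IL18 and is itself induced by interferon gamma. It was the 1 gene of the 18 past the limits in the difference between dog groups at 24 hr, where 0.935% of all probes passed. It was higher in sensitized dogs by 2.18 ± 0.48 (SE, adjusted p = 0.0158), with 1.36 ± 0.35 (adjusted p = 0.0505) in sensitized and -0.82 ± 0.33 (adjusted p = 0.259) in nonsensitized dogs. CXCR3 had estimates of -0.05 to 0.07 in the 4 comparisons of allergen with saline.

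The changes of listed genes other than the members were read from the fit without blocks only. No fit with slide or session as a block, or without a dog, was read for them, and slide was largely tied to time. Against untreated skin at 24 hr, 8 of the 18 genes rose and none fell at allergen sites of sensitized dogs. The median difference was 0.10 over the list and -0.02 over all probes, of which 7.61% were higher and 6.14% lower. At saline sites of nonsensitized dogs 6 rose and 3 fell, beside 9.89% higher and 12.8% lower over all probes, with medians of 0.10 and 0.02. At allergen sites of nonsensitized dogs 3 rose and 3 fell, beside 5.75% higher and 11.2% lower, and the median of the list was below that of all probes, at -0.04 against 0.04. At saline sites of sensitized dogs 3 rose and none fell, beside 4.36% higher and 5.12% lower, and the list was again below, at -0.04 against 0.0047. OAS1, which makes the second messenger that activates an RNA-cleaving enzyme, rose in these 4 groups, by 1.56 ± 0.31 (SE, adjusted p = 8.44e-05) at allergen and 0.79 ± 0.30 (adjusted p = 0.033) at saline sites in the sensitized group. Nonsensitized dogs had rises of 1.08 ± 0.30 (adjusted p = 0.00237) and 1.19 ± 0.30 (adjusted p = 0.000652). PSMB8, a proteasome subunit of antigen processing, rose in the same 4 groups, from 0.72 ± 0.27 (adjusted p = 0.0262) at allergen sites of nonsensitized dogs to 1.69 ± 0.28 (adjusted p = 7.83e-06) at allergen sites of sensitized dogs. CXCR3 fell by 0.76 at saline (adjusted p = 0.000842) and by 0.75 at allergen sites (adjusted p = 0.0013) of nonsensitized dogs. Among the type I interferons, IFNB1 was well above background on no array, IFNA5 on 14 and IFNA7 on all 59. IFNA7 fell at 24 hr in nonsensitized dogs, by 0.65 at saline (adjusted p = 0.000493) and by 0.59 at allergen sites (adjusted p = 0.00169). Of the subunits of IL12, a cytokine that drives production of interferon gamma, IL12B was well above background on 1 of 59 arrays and IL12A on all 59. IL12A rose in sensitized dogs, by 0.94 at 6 hr allergen sites (adjusted p = 0.00182), 0.76 at 24 hr allergen sites (adjusted p = 0.00487) and 0.66 at 24 hr saline sites (adjusted p = 0.0126).

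The genes whose level followed each member most closely were found among 898 other named genes over the 59 arrays, which share dogs, slides and time. MX1 was most like OAS2 (r = 0.819), OAS1 (0.816), the lectin LGALS9 (0.781), NM_001003133 (0.703) and the protease inhibitor TIMP1 (0.66). NM_001003133 was most like LGALS9 (r = 0.818), the lysosomal protease CTSS (0.726), MX1 (0.703), OAS2 (0.669) and OAS1 (0.655). CXCL10 was most like the growth factor CSF2 (r = 0.683), the inflammatory caspase CASP4 (0.656), the chemokine CCL13 (0.652), OAS3 (0.65) and MX1 (0.645).

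Single biopsies were then read one by one, chosen by their MX1 level, so their values are a description. The 4 arrays with the highest MX1 were all from nonsensitized dogs. The first was the 6 hr saline site of dog 2800, at 11.22 for MX1 and 9.19 for NM_001003133, the highest of the 59 arrays for both, and at 8.33 for CXCL10, the second highest. OAS1 was also at its highest of the 59 arrays there, at 9.27. The allergen site of the same dog at the same time was at 7.60, 6.99 and 6.05 for the 3 genes, the lowest of the 6 nonsensitized dogs for each.

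The 24 hr saline site of dog 2800 was the fourth in MX1, at 10.01, and the first in CXCL10, at 8.44, while NM_001003133 was at 7.59, within the range of the other dogs. The second array in MX1 was the 6 hr allergen site of dog 2704, at 10.87, with NM_001003133 at 8.32 and CXCL10 at 6.94. The third was the 24 hr allergen site of dog 2845, at 10.33, with NM_001003133 at 8.30 and CXCL10 at 6.79, and this was the second of the 2 arrays with IFNG above background. CXCL10 thus stood out at both saline sites of dog 2800 and lay within the range of the other dogs on the other 2 arrays.

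**Figure D5:**
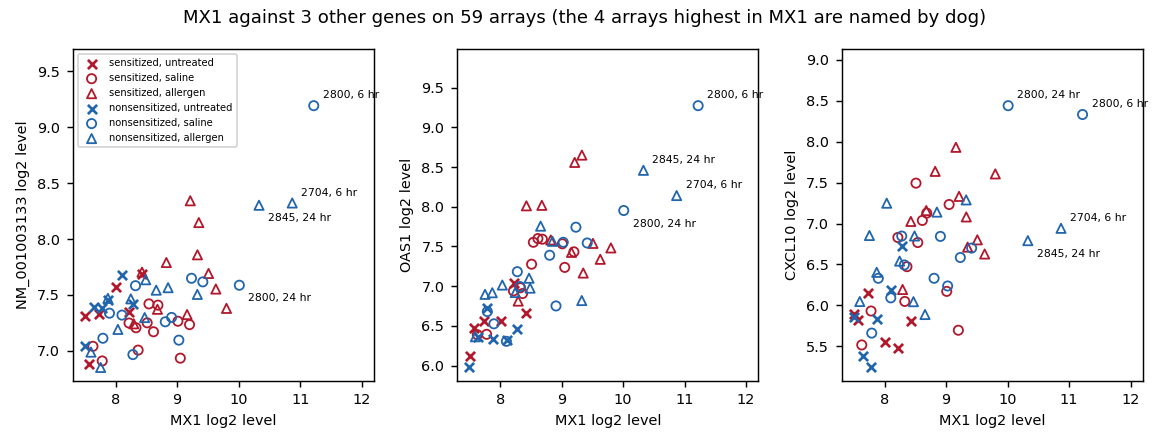
Log2 level of MX1 on each of 59 arrays against that of NM_001003133, OAS1 and CXCL10, coloured by dog group and shaped by site, with the 4 arrays highest in MX1 named by dog and time. The 6 hr saline site of dog 2800 lies at the top right of the first 2 panels, at 11.22 for MX1, 9.19 for NM_001003133 and 9.27 for OAS1.

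Across the 11 or 12 dogs of a kind of site, each pair of the 4 genes was compared by its deviations from the mean of the dog group, which gave 30 relations with p from 100000 permutations within dog groups. None passed an adjusted p of 0.05 by Pearson's r or by Spearman's rho. Of these, 15 involve IFNG, which was at background on 57 arrays. Adjusted over the 15 others alone, a choice made after the data were seen, none passed by Pearson's r, where 6 pairs shared the smallest adjusted p of 0.0501, and 1 passed by Spearman's rho. This was MX1 and NM_001003133 in untreated skin, with rho of 0.85 (permutation p = 0.00212, adjusted 0.0318 over 15 and 0.0636 over 30), r = 0.73 (permutation p = 0.0116, adjusted 0.1 over 30) and r = 0.71 without the 2 dogs farthest from the median of MX1. Without IFNG, 14 of 15 values of Pearson's r were above 0, from -0.05 for NM_001003133 and CXCL10 at 24 hr allergen sites to 0.91 for MX1 and NM_001003133 at 6 hr saline sites. The latter had a permutation p of 0.00995 (adjusted 0.1), Spearman's rho of 0.68 (adjusted p = 0.202) and r = 0.63 without the 2 dogs farthest from the median of MX1. MX1 and CXCL10 at 6 hr saline sites had r = 0.79 (permutation p = 0.0201, adjusted 0.1), rho of 0.68 (adjusted p = 0.191) and r = 0.91 without the 2 farthest dogs. MX1 and NM_001003133 at 24 hr saline sites had r = 0.53 (adjusted p = 0.502), rho of 0.43 (adjusted p = 0.525) and r = 0.10 without the 2 farthest dogs. Without the 2 dogs farthest from the median of the first gene, r of the same pair fell from 0.75 to 0.31 at 6 hr allergen sites. It fell from 0.75 to 0.32 at 24 hr allergen sites. For NM_001003133 and CXCL10 at 6 hr saline sites r fell from 0.83 to 0.49. Only 3 of the 15 pairs kept r over 0.5.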

How the data were processed

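Total RNA of 60 skin biopsies was hybridized to one-colour Agilent canine arrays, 1 per biopsy. The deposited intensity values are processed signals, background-subtracted by the authors with Agilent Feature Extraction 10.7.3.1 and not scaled between arrays. The files give no sequence for the probes and the genome build of the array design was not used.

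Groups and dogs came from the sample titles, and slide numbers from the names of the deposited files. Values of outlier spots, 6048 in all, were dropped. The filter on dim spots asked for detection (the scanner's flag of a signal well above background) in 5 or more arrays of any 1 group, and 45972 probes passed it. Signals were variance stabilized with a reimplementation of the vsn model, tested on simulated data, and spots of a probe were averaged. limma 3.58.1 (R 4.3.3) fitted the 10 groups jointly and unpaired on 59 arrays, and 15 comparisons were read from it, with Benjamini-Hochberg adjustment over all probes. A call needs an adjusted p below 0.05 and 1.5-fold. The fit was tested on simulated data with known changes. Each gene was read through its brightest probe. Marker signals were scaled to a common 75th percentile. Symbols were paired with 1067 of 52734 identifiers. Summaries used scipy 1.17.1, pandas 2.3.3 and numpy 2.4.6 under Python 3.11.15, and plots matplotlib 3.10.9.

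Biopsies of the same dog are paired by the animal: residuals of the fit correlated with a median of 0.386 within dogs and -0.0437 between dogs. Dogs are separate animals, and 6 per group set the precision. The members, the gene lists and the tests were chosen with earlier results of these data known. Named were the members, CXCR3 and IL18BP, genes of the lists that passed in a comparison of allergen with saline (there were none), and the 5 genes most like each member. OAS1, PSMB8, PSMB9, IFNA5, IFNA7, IFNB1, IL12A, IL12B, TAPBP and the markers were named after their values were seen. Alternatives were other scalings, filters, blocks and thresholds, normexp with an offset of 50 and quantile scaling, and each dog left out. The scan session as a block, the sign-flip test and the pairs without IFNG were added after the data were seen.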

Additional observations from a re-analysis of the deposited data

Results flagged for a closer look

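Of 40 sets of arrays, the 4 genes in 10 groups, 5 had an array whose distance from its nearest neighbour was a large part of the whole range of the group (Dixon's limit at 95%, which chance passes in about 1 in 20 sets). For IFNG this was read only where that array was well above background. At 6 hr saline sites of nonsensitized dogs, dog 2800 lay apart for MX1, at 11.22 with the next dog at 8.91, and for NM_001003133, at 9.19 with the next at 7.58. At 24 hr saline sites of nonsensitized dogs the same dog lay apart for CXCL10, at 8.44 with the next dog at 6.85. IFNG lay apart in dog 2802 at the 24 hr saline site, at 10.97 with the next at 4.64, and in dog 2845 at the 24 hr allergen site, at 6.39 with the next at 4.61. The 5 sets involve 4 arrays, all of nonsensitized dogs. The causes were not tested.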

How the results depend on the processing

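Of the 7 rises of MX1 and CXCL10 against untreated skin, only that of CXCL10 at 24 hr allergen sites of sensitized dogs kept its call under every alternative. Of the 3 tested genes, the number past the limits at 24 hr saline sites was 1 in sensitized dogs (2 with the series table unscaled or a separate fit per time point, 0 with slide or session as a fixed block or at an unadjusted p below 0.002) and 2 in nonsensitized dogs (0 with either fixed block or at that p, 1 with slide as a random block). At 6 hr allergen sites it was 2 in sensitized dogs (0 with either fixed block, 1 at that p) and 0 in nonsensitized dogs, where the dog as a replicate block gave 1, CXCL10 at 0.95 (adjusted p = 0.019). The pairing by dog changed no other call. At 24 hr allergen sites it was 2 in sensitized dogs (1 with 75th percentile scaling, normexp and quantile, slide as a fixed or random block, session, or at that p, and 3 with the series table, where NM_001003133 passed at 0.68 with an adjusted p of 0.0474) and 0 in nonsensitized dogs (1 with all 60 arrays weighted, a separate fit per time point or the mean over probes, 2 with the series table). Leaving out 1 dog gave 0 to 1, 1 to 2, 0 to 2, 0 to 1, 1 to 2 and 0 to 1 in that order, and 0 in the other comparisons. The correlated pairs past 0.05 were 0, and 2 with the series table or without dog 2839 (0 to 2 over the dogs). Over the pairs without IFNG, added after the data were seen, they were 0 by Pearson's r and 1 by Spearman's rho. The series table moves the median of all probes by up to 0.51.

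Some directions turned, all of them of values that had not passed the limits. MX1 turned to -0.053 in untreated skin with array weights and to -0.17 and -0.038 for allergen minus saline at 6 hr in nonsensitized dogs with slide as a fixed and a random block. CXCL10 turned to 0.037 in untreated skin with the series table. NM_001003133 turned with the series table to 0.069 in untreated skin and to 0.13 and 0.48 at 24 hr saline sites of sensitized and nonsensitized dogs. In the latter it was 0.018 without a filter, 0.0029 with slide as a random block and 0.17 with session. With slide as a fixed block it was 0.21 at 6 hr saline and -0.13 at 24 hr allergen sites of sensitized dogs, and -0.0032 at 6 hr and -0.29 at 24 hr allergen sites of nonsensitized dogs. Without 1 dog, MX1 ran from -0.057 to 0.13 in untreated skin and from -0.55 to 0.79 for allergen minus saline at 6 hr in nonsensitized dogs. CXCL10 ran from -0.22 to 0.081 in untreated skin, from -0.024 to 0.69 for that same contrast and from -0.022 to 0.69 for its difference between dog groups. NM_001003133 ran from -0.11 to 0.055 in untreated skin, and in nonsensitized dogs from -0.39 to 0.29 and from -0.038 to 0.32 for allergen minus saline at 6 and 24 hr, from -0.052 to 0.35 and -0.084 to 0.0197 at saline sites and from -0.039 to 0.24 and -0.044 to 0.25 at allergen sites. The causes were not tested. IFNG lay at background on 57 of 59 arrays, which limits any reading of the inducer.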

Other observations

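The 24 hr allergen array of dog 2839 was used only in the alternatives with all 60 arrays. It had 67.6% of spots well above background and a median correlation with the other arrays of 0.933, where the 59 arrays had at least 0.972. On the scale set with all 60 arrays it read 9.33 for MX1, 8.78 for NM_001003133 and 6.06 for CXCL10.

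On the array with the high IFNG signal, the 24 hr saline site of dog 2802, other genes were also above the 5 other dogs of the group in scaled signal. CXCR3 was 2.6 times the highest of them, TAPBP, a chaperone of antigen presentation, 2.02 times, CD4 1.38 times, and the proteasome subunits PSMB9 and PSMB8 1.39 and 1.27 times, with OAS2 at 1.05 times. Genes of other cell types were also above the other dogs there, among them CD1A8 at 1.8 times, CD1A6 at 1.64, FCER1A at 1.45, VWF at 1.34 and COL1A1 at 1.29 times the highest of them, and the summed markers of endothelial cells, mast cells, dendritic cells, macrophages, T cells and fibroblasts at 1.18 to 1.34 times. The cytotoxic markers PRF1 and KLRD1 read 37 and 32.8 there, against 17.6 to 34.4 and 8.26 to 171.8. On the 6 hr saline array of dog 2800, OAS1 was 5.35 times, OAS2 2.58 times and EIF2AK2, a kinase that senses double-stranded RNA, 1.6 times the highest of the other dogs, and PRF1 and KLRD1 lay within their range. On the 6 hr allergen array of dog 2704, OAS1 was 2.28 times and S100A8 1.52 times the highest of the other dogs. On the 24 hr allergen array of dog 2845, OAS1 was 1.72 times and OAS2 1.82 times the highest of the others. These arrays were picked by their values, and the cause of their levels was not tested.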
